A study of Mus musculus with 4 samples.

Results

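The glucocorticoid receptor gene Nr3c1 and 9 of the genes it is known to induce directly (Fkbp5, Tsc22d3, Zbtb16, Klf9, Per1, Sgk1, Dusp1, Mt1 and Mt2) were read on arrays of carcinogen-induced mouse mammary tumours. All probe sets annotated to 1 of these symbols alone were taken, which gave 23 probe sets for 10 genes, out of 20380 one-symbol probe sets for 12393 genes. The tumours came from nulliparous female FVB mice, matched for an age not given here, in 4 groups, MMTV-PAX8PPARg mice with RU486 pellets, MMTV-PAX8PPARg mice with placebo pellets, wild-type (WT) littermates with RU486 pellets and WT littermates with placebo pellets. Every group, placebo included, had first received the progestin MP (Depo-Provera, 15 mg) and then 4 weekly gavages of 1 mg of the carcinogen DMBA. Pellets released 2.5 mg RU486 or placebo over 60 days and were implanted a day after the last DMBA dose and again 60 days on. The transgene puts a PAX8 and PPARg fusion behind the mouse mammary tumour virus (MMTV) promoter, which is active in mammary epithelium and is itself switched on by glucocorticoids and progestins. Each group was hybridised once, to 1 array carrying the pooled RNA of 5 mice, so the spread between mice is unknown and a difference between single arrays has no test.

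The glucocorticoid receptor is a nuclear receptor that waits in the cytoplasm in a complex with heat shock proteins. Hormone binding moves it to the nucleus, where it sits on glucocorticoid response elements and induces genes that damp inflammation, alter metabolism and restrain its own signal. RU486 (mifepristone) was made as a progesterone receptor antagonist and also blocks this receptor. In the mammary gland glucocorticoids act beside prolactin in secretory differentiation, and adipocytes and immune cells of the gland respond to them as well.

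RefSeq promoter windows (GRCm38.p6, 250 bases before to 50 after an annotated start, written 5′ to 3′ on the gene's strand) were found for 8 of the 10 genes, 16 windows in all. Both strands were searched for the full glucocorticoid response element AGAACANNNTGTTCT, for its half-site AGAACA, for the metal response element core as TGCACNC or TGCGCNC, for the cAMP response element TGACGTCA and for the E-box CACGTG. The full element stood in 1 of the 16 windows, an Sgk1 window, and in 3 of all 32851 windows of this length (0.00913%). The half-site stood in 4 of the 16, in windows of Sgk1 and Tsc22d3, against 19.0% of all windows. The metal response element core stood in 5 of the 16, against 25.7%, the E-box in 4, against 7.15%, and the cAMP response element in 1, that of Dusp1, against 1.79%. The first pair of windows printed here holds the full element (Sgk1) and a lone half-site (Tsc22d3), and the second pair belongs to the metallothionein genes, which differed from the other targets on these arrays. A match is a match of letters, not a shown binding site, and says nothing of elements that lie further away.

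The Sgk1 window lies at chr10:21993640-21993939 on the plus strand. Capitals mark the full element, at positions -189 to -175 from the start, and a further half-site at -242 to -237. The full element holds a half-site on either strand, and an E-box overlaps the further half-site. The Tsc22d3 window lies at chrX:140600473-140600772 on the minus strand, with its half-site at -185 to -180 in capitals.
Sgk1: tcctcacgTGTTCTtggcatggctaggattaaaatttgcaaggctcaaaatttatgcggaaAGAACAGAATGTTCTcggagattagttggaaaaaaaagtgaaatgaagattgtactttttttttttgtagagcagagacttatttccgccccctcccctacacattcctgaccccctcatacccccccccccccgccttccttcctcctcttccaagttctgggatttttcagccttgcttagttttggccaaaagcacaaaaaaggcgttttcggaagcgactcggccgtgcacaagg
Tsc22d3: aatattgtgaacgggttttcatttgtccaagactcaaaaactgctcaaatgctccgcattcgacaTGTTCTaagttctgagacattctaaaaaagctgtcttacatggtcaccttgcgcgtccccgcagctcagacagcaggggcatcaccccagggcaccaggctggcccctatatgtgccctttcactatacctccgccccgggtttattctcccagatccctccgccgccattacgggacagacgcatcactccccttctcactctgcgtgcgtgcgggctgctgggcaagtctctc

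The Mt2 window lies at chr8:94172368-94172667 and the Mt1 window at chr8:94178839-94179138, both on the plus strand. Capitals mark the metal response element cores, 4 in the Mt2 window and 3 in the Mt1 window. Neither window held the full glucocorticoid response element or its half-site.
Mt2: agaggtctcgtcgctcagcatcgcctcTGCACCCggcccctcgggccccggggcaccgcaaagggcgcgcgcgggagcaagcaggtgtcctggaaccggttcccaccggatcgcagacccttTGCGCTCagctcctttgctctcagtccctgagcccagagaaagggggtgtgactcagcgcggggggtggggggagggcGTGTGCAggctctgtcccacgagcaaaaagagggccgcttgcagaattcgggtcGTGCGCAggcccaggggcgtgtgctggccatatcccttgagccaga
Mt1: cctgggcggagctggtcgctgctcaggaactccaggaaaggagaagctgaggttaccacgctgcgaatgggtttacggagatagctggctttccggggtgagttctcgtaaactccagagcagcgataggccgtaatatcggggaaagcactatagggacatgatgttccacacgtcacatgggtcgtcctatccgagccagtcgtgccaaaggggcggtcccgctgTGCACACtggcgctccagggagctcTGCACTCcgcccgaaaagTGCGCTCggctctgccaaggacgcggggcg

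Values are the deposited probe set signals on a linear scale, given in the order of the groups above. Each difference is a difference of log2(signal + 16) after the array's own median was subtracted. A gene is represented by its brightest probe set, and 9 of the 10 genes, all but Zbtb16, reached the median level of all genes that was required for counts over 6197 genes. The 2 brightest probe sets of a gene, where both reached that level (2267 genes), disagreed on the RU486 difference by a median of 0.246 log2 in PAX8PPARg and 0.195 in WT, which measures disagreement between probe sets and not between mice. The highest of 27 bacterial control probe sets was 35.3, 8.3, 18.5 and 9.6 on the 4 arrays, and a signal at or under it is called background. Against the WT placebo array, the 18 spike-in probe sets had a median ratio of 2.43 for PAX8PPARg RU486, 1.00 for PAX8PPARg placebo and 1.59 for WT RU486.

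In PAX8PPARg tumours most of the targets stood lower with RU486 than with placebo, and both metallothionein genes stood higher. Of the 9 genes, 3 were at least 2-fold lower (Tsc22d3, Klf9 and Sgk1), against 5.1% of all genes, and 2 were at least 2-fold higher (Mt1 and Mt2), against 5.05%. Together these 5 of 9 stand against 10.2% of all genes that differed 2-fold. Fkbp5 and Per1 lay just short of 2-fold lower. In WT tumours 0 of the 9 differed 2-fold between RU486 and placebo, against 13.7% of all genes (5.5% higher and 8.25% lower). Irrespective of size, 7 of the 9 were lower with RU486 in PAX8PPARg, against 45.8% of all genes, and 3 of the 9 in WT, against 54.8%. The median over the 9 genes was -0.86 log2 in PAX8PPARg, where the median of all genes was 0.05, and 0.13 log2 in WT, where it was -0.06.

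**Figure D1:**
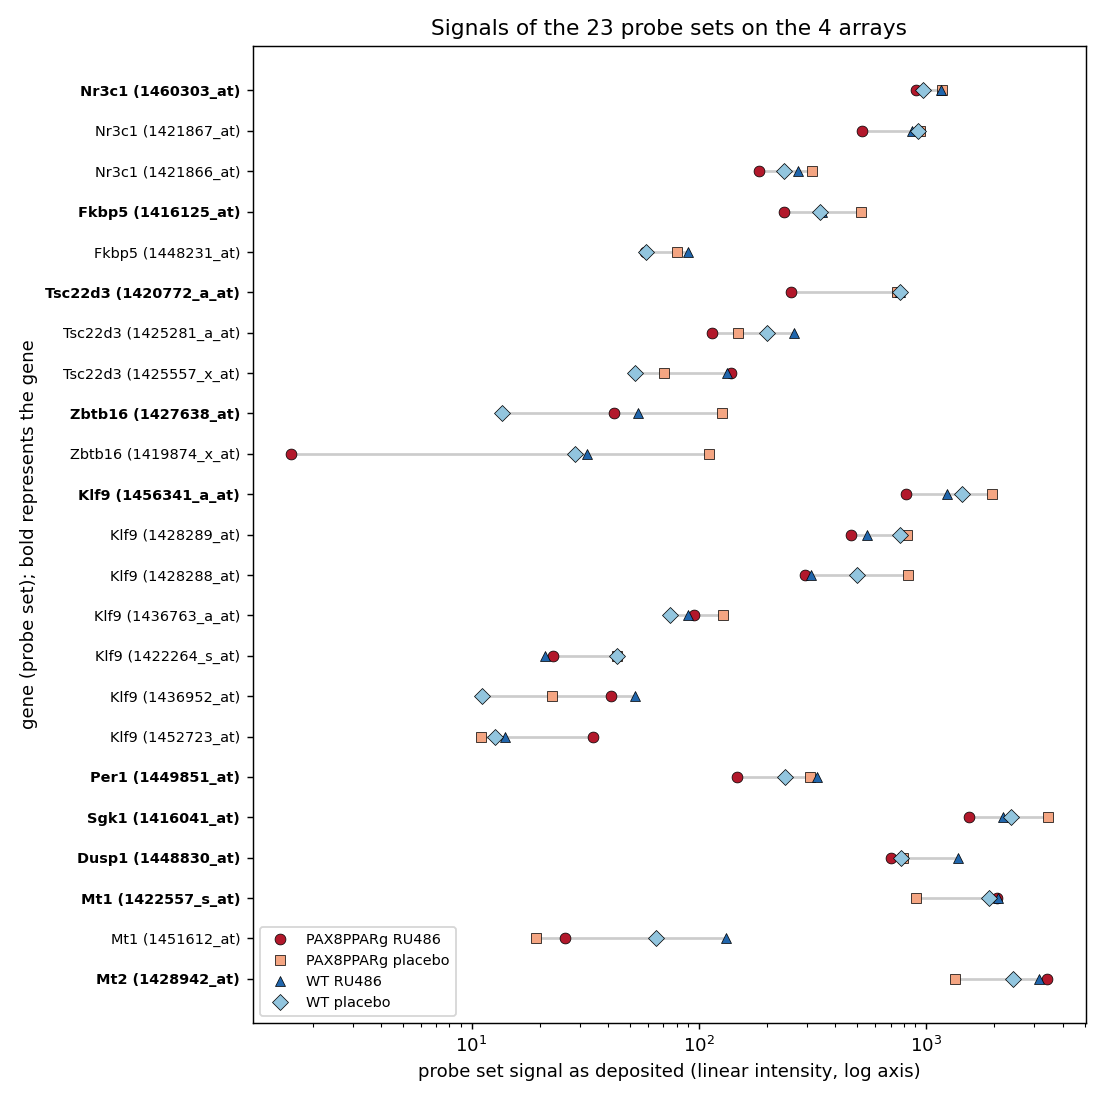
Signal of each of the 23 probe sets (log axis, linear intensity as deposited) on the 4 arrays, 1 point per array of pooled RNA, with no error bars because no array was repeated. The PAX8PPARg RU486 array is the leftmost point for the probe sets in bold, which represent their genes, of Nr3c1, Fkbp5, Tsc22d3, Klf9, Per1, Sgk1 and Dusp1, and the PAX8PPARg placebo array for those of Mt1 and Mt2.

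The receptor gene itself differed by less than 2-fold in each comparison on all 3 of its probe sets. The brightest Nr3c1 probe set (1460303_at) read 908 in PAX8PPARg RU486 and 1179 in PAX8PPARg placebo tumours, against 1165 in WT RU486 and 968 in WT placebo tumours. The second (1421867_at) read 524 and 944 in PAX8PPARg, against 869.8 and 926 in WT, and the third (1421866_at) read 184 and 315 in PAX8PPARg, against 272.5 and 237 in WT. All 3 probe sets were lowest on the PAX8PPARg RU486 array. The RU486 difference was -0.24, -0.70 and -0.59 log2 in PAX8PPARg for the 3 probe sets, and 0.26, -0.09 and 0.19 in WT. The brightest probe set thus differed by about as much as probe sets of a gene disagree, and 26.88% of all genes had a difference as low or lower in PAX8PPARg.

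Fkbp5 encodes a co-chaperone that lowers the hormone affinity of the receptor, and its induction is a common readout of receptor activity. Its brighter probe set (1416125_at) read 238 and 520.4 with RU486 and placebo in PAX8PPARg, against 348 and 343.5 in WT. The WT pair was level and lay between the PAX8PPARg pair. The RU486 difference was -0.95 log2 in PAX8PPARg (5.7% of all genes were as low or lower) and 0.02 in WT. The dimmer probe set (1448231_at) read 58.2 and 80.0 in PAX8PPARg, against 89.5 and 58.5 in WT, with differences of -0.24 and 0.50.

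Tsc22d3 encodes GILZ, a leucine zipper protein that carries part of the anti-inflammatory action of glucocorticoids. Its brightest probe set (1420772_a_at) read 254 with RU486 and 745 with placebo in PAX8PPARg, against 772 and 773.5 in WT. A single array, that of the PAX8PPARg RU486 tumours, was low, and the other three lay together. The RU486 ratio was 0.389 in PAX8PPARg (-1.36 log2, with 2.44% of all genes as low or lower) and 0.999 in WT. The other probe sets, below the level filter, differed from this pattern in part. One (1425281_a_at) read 114 and 149.7 in PAX8PPARg, against 264 and 199 in WT (-0.21 and 0.38), and the other (1425557_x_at), of a type that can also detect related transcripts, read 139 and 70.6, against 133 and 52.6 (0.97 and 1.12). Under RU486 the first of these was also lower in PAX8PPARg than in WT (-1.16), and the second was level.

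Zbtb16 encodes PLZF, a zinc finger repressor that is strongly glucocorticoid-inducible in many cells and also marks some innate-like T cells. Its signals were low. The brighter probe set (1427638_at) read 42.5 and 127 with RU486 and placebo in PAX8PPARg, against 53.9 and 13.6 in WT. The other (1419874_x_at) read 1.6, which is background, and 111 in PAX8PPARg, against 32.4 and 28.6 in WT. Both probe sets were highest on the PAX8PPARg placebo array. The brighter probe set differed by -1.15 log2 with RU486 in PAX8PPARg and by 1.24 in WT, and the second by -2.72, inexact because of the background value, and 0.12.

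Klf9 encodes a Krüppel-like factor that feeds back on receptor target genes. Its brightest probe set (1456341_a_at) read 816 with RU486 and 1954 with placebo in PAX8PPARg, against 1236 and 1444.5 in WT. The next 2 (1428289_at and 1428288_at), also above the level filter, read 467 and 827 in PAX8PPARg against 549 and 769 in WT, and 295 and 836 in PAX8PPARg against 313 and 499 in WT. RU486 was the lower of the pair in both genotypes for all 3, by -1.11, -0.67 and -1.32 log2 in PAX8PPARg and by -0.22, -0.47 and -0.65 in WT. The 4 dimmer probe sets scattered from -0.49 to 1.03 in PAX8PPARg and from -0.69 to 1.34 in WT.

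Per1, a repressor of the circadian clock that glucocorticoids also induce outside the clock cycle, read 147 (1449851_at) with RU486 and 309 with placebo in PAX8PPARg, against 333 and 241 in WT. It was lower with RU486 in PAX8PPARg (-0.86 log2) and higher in WT (0.44). Sgk1, a kinase that raises sodium channel activity and cell survival, read 1543 (1416041_at) and 3441 in PAX8PPARg, against 2191 and 2381 in WT, which gave -1.02 and -0.12 log2. Its 2 WT arrays were close to each other and lay between the PAX8PPARg pair. Dusp1, a phosphatase that switches off MAP kinases, had another pattern, with 704.5 (1448830_at) and 797 in PAX8PPARg against 1381 and 780.0 in WT. Its WT RU486 array was high and the other three were level, which gave -0.04 log2 in PAX8PPARg and 0.81 in WT.

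The metallothioneins Mt1 and Mt2 encode small cysteine-rich proteins that bind zinc and copper, and both glucocorticoids and metals induce them. Mt1 (1422557_s_at) read 2065 with RU486 and 908 with placebo in PAX8PPARg, against 2077 and 1901 in WT. Mt2 (1428942_at) read 3426 and 1346 in PAX8PPARg, against 3166 and 2417 in WT. For both genes the PAX8PPARg placebo array was the low one and the other three lay above it. The RU486 difference was 1.30 log2 for Mt1 and 1.47 for Mt2 in PAX8PPARg (2.65% and 1.98% of all genes were as high or higher), and 0.13 and 0.39 in WT. A dim second Mt1 probe set (1451612_at) read 25.8, which is background, and 19.3 in PAX8PPARg, against 132 and 65.2 in WT (0.38 and 0.87 log2).

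**Figure D2:**
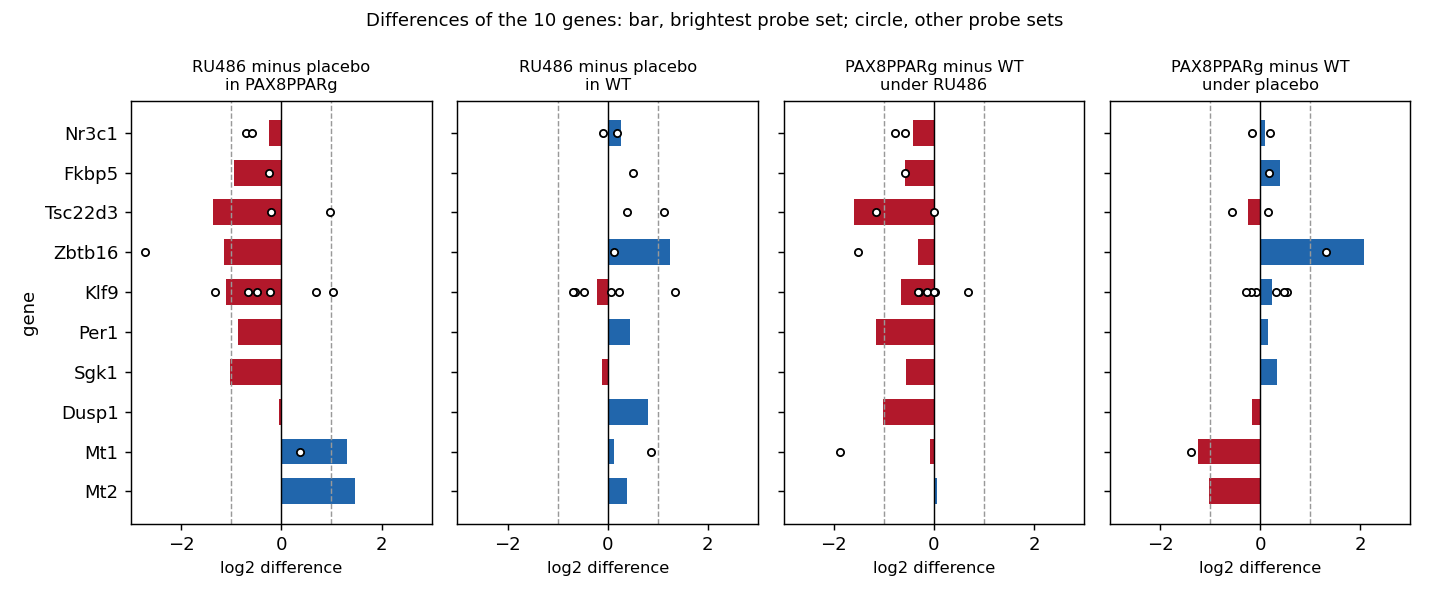
Differences (log2, x axis) of the 10 genes in the 4 comparisons, with red bars below 0 and blue bars above 0 for the brightest probe set, circles for the other probe sets and dashed lines at 2-fold. With RU486 in PAX8PPARg the bars run from -1.36 for Tsc22d3 to 1.47 for Mt2, while in WT the bars of the 9 genes above the level filter stay between -0.22 and 0.81.

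Among the 7 targets other than the metallothioneins, 8 probe sets of 6 genes reached the level filter. All 8 were lower with RU486 in PAX8PPARg, 4 of them at least 2-fold. Klf9 gave 3 of these 8 probe sets (-1.11, -0.67 and -1.32 log2). By gene, all 6 were lower, against 45.8% of all genes, and 3 were at least 2-fold lower, against 5.1%. The share over all probe sets was not counted. In WT 5 of the 8 were lower, that of Tsc22d3 by a ratio of 0.999, and none differed 2-fold. Below the level filter the probe sets did not keep to this: over all 17 probe sets of these genes 14 were lower in PAX8PPARg and 6 in WT. When all probe sets of a gene were averaged, dim ones included, the count of 2-fold differences in PAX8PPARg became 2 (Sgk1 and Mt2), with Tsc22d3 at -0.20, Klf9 at -0.30 and Mt1 at 0.84. Averaging only the probe sets at or above the level filter gave 5 again, with Klf9 at -1.03.

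**Figure D3:**
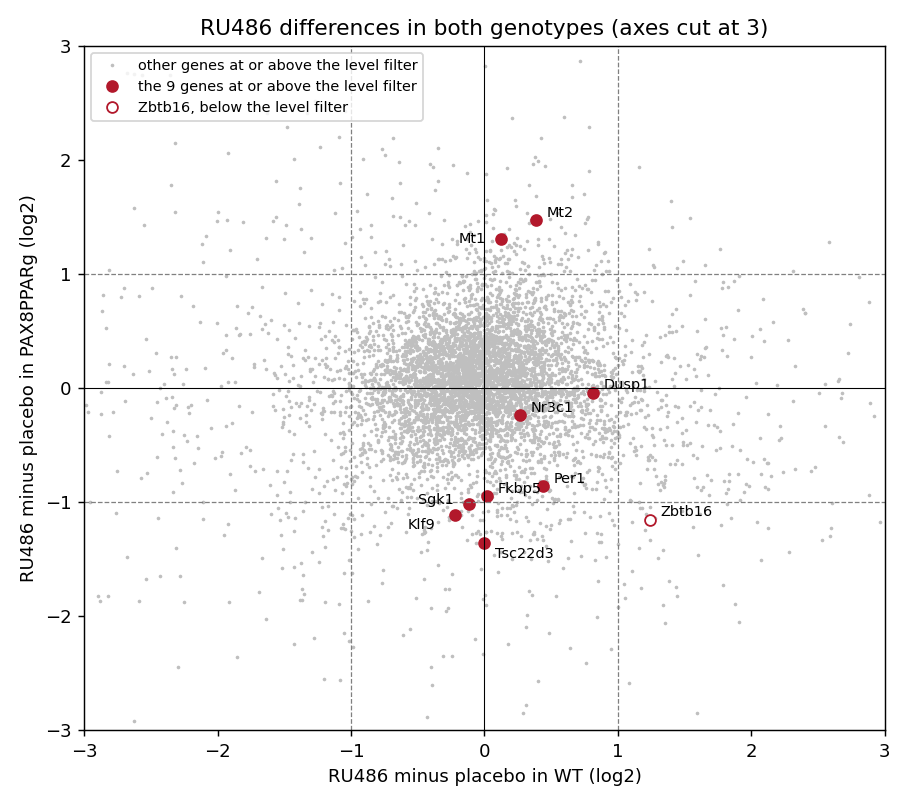
RU486 minus placebo in PAX8PPARg (y axis) against RU486 minus placebo in WT (x axis), both log2, for the genes at or above the level filter (grey) and the 10 genes (red; Zbtb16 open). Axes stop at 3 and dashed lines mark 2-fold. Tsc22d3, Klf9, Sgk1 and Fkbp5 lie near -1 on the y axis and near 0 on the x axis. Per1 lies at -0.86 on the y axis and 0.44 on the x axis, and Mt1 and Mt2 lie above 1 on the y axis.

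The genotypes were then compared under each treatment. Under RU486, 8 of the 9 genes were lower in PAX8PPARg than in WT, as were 53.4% of all genes, and 3 were at least 2-fold lower, against 10.2% of all genes. None of the 9 was 2-fold higher (7.23% of all genes were, and 17.5% differed 2-fold either way). These were Tsc22d3 (-1.60 log2), Per1 (-1.16) and Dusp1 (-1.01). With the mean of all probe sets Tsc22d3 was at -0.92. Dusp1 fell short of 2-fold without centring (-0.96) and with quantile normalization (-0.85). Fkbp5 was at -0.58, Sgk1 at -0.56 and Klf9 at -0.65, and Mt1 and Mt2 were level (-0.07 and 0.06).

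Under placebo, the genotypes were closer for the 6 targets above the level filter other than the metallothioneins, and apart for the metallothioneins. Zbtb16, below the filter, was also apart, 2.08 log2 higher in PAX8PPARg and 1.32 higher on its second probe set. Under RU486 its differences were -0.31 and -1.52, the second inexact because of the background value. Fkbp5 (0.39), Sgk1 (0.34), Klf9 (0.24) and Per1 (0.15) were slightly higher in PAX8PPARg, and Tsc22d3 (-0.24) and Dusp1 (-0.16) slightly lower. Mt1 (-1.24) and Mt2 (-1.03) were at least 2-fold lower, against 4.39% of all genes. None of the 9 genes above the level filter was 2-fold higher, against 1.89% (6.28% either way). Mt2 was at -0.84 without centring. Of the 9 genes 4 were lower in PAX8PPARg, against 70.0% of all genes. The median of all genes was -0.19 in this comparison and 0.00 without centring. The PAX8PPARg RU486 array was the lowest of the 4 for 7 of the 9 genes, Nr3c1, Fkbp5, Tsc22d3, Klf9, Per1, Sgk1 and Dusp1, and for 28.3% of all genes. The PAX8PPARg placebo array was the lowest for 2 (Mt1 and Mt2), against 34.4% of all genes, and the highest for Fkbp5, Klf9 and Sgk1, 3 genes, against 14.2%. The WT RU486 array was the highest for 4, against 33.3%.

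The RU486 difference in PAX8PPARg minus that in WT was past 2-fold for 4 of the 9 genes, against 21.7% of all genes. It was negative for Tsc22d3 (-1.36) and Per1 (-1.30) and positive for Mt1 (1.18) and Mt2 (1.08). Fkbp5 (-0.97), Sgk1 (-0.90), Klf9 (-0.89) and Dusp1 (-0.85) lay just short of it, and Nr3c1 was at -0.50. With the mean of all probe sets Tsc22d3 was at -0.70 and Mt1 at 0.34, short of 2-fold. Without centring Mt2 was at 0.95, and Fkbp5 (-1.10), Sgk1 (-1.03) and Klf9 (-1.02) passed 2-fold. With 1 array a group this difference has no test.

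Marker genes of several cell types differed between the same arrays. The summed signal of 17 adipocyte genes was 6010.5 with RU486 and 37786 with placebo in PAX8PPARg, against 6078 and 14248.5 in WT, and all 17 were highest on the PAX8PPARg placebo array. On the PAX8PPARg RU486 array 3 of the 17 were background. T and NK cell genes (15) summed to 723 and 5416 in PAX8PPARg against 1036 and 1413.5 in WT, B and plasma cell genes (12) to 979 and 11480.4 against 3799.6 and 619.7, and endothelial genes (13) to 2842 and 6179 against 2555 and 3479.9. On the PAX8PPARg RU486 array 7 of the 15 and 8 of the 12 lymphocyte genes were background. Most of the B and plasma cell sum on the WT RU486 array came from Igk (2078) and Ighm (1177), which read 301 and 101 on the WT placebo array. Of the 12 genes, 4 were background on the WT RU486 array and 5 on the WT placebo array.

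The labelled tissue was a mammary tumour, and its luminal epithelial markers were present on 3 arrays and low on the fourth. The 18 luminal genes summed to 54286.5 and 46295 with RU486 and placebo in PAX8PPARg, against 8685 and 53281 in WT, and 3 of the 18 were background on the WT RU486 array. The 18 macrophage genes summed to 28314.5 and 25338 in PAX8PPARg, against 85695 and 24459.5 in WT, so the array on which Dusp1 was high was also that with the highest macrophage and lowest luminal sum. Squamous genes (17) summed to 14978 and 1776 in PAX8PPARg against 418 and 8231 in WT. Of the 17, 1, 7, 14 and 1 were background on the 4 arrays. Neutrophil genes (12) summed to 8377 and 1429.8 in PAX8PPARg against 2815 and 9468 in WT. The neutrophil sum rested on few genes, Ltf alone reading 2937 and 604 in PAX8PPARg against 286 and 4880 in WT. Of the 12, 4, 4, 5 and 3 were background on the 4 arrays, and 5, 0, 4 and 3 were highest on them. Basal genes (14) summed to 30307 and 26867 in PAX8PPARg against 7298 and 29494 in WT, but the sum hid a split within the list. Of the 13 above the level filter, 6 were 2-fold higher and 4 lower with RU486 in PAX8PPARg, against 5.05% and 5.1% of all genes. Krt14 was at 2.57 log2 and the contractile gene Myh11 at -2.45. In WT 11 of the 13 were 2-fold lower, against 8.25%. Fibroblast genes (14) varied least, between 42048 on the PAX8PPARg placebo and 69862 on the WT RU486 array. Mast cell genes (10) summed to 983 and 1199.5 in PAX8PPARg against 2567 and 1353.5 in WT, and 7 of the 10 were highest on the WT RU486 array. Kit, a large part of the PAX8PPARg sums, ran the other way, at 559 and 598 in PAX8PPARg against 95.1 and 516 in WT. The part of any of these cell types in the values of the 10 genes was not tested. In pooled tissue, fewer cells of a type and less RNA per cell cannot be told apart.

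**Figure D4:**
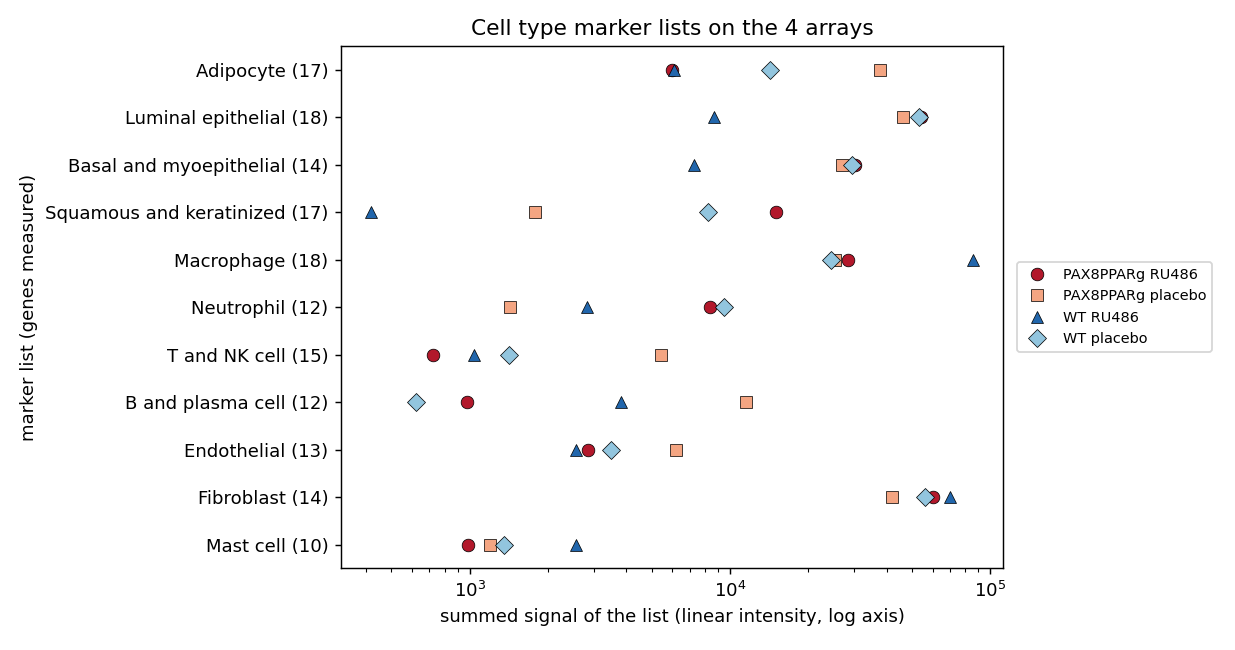
Summed signal of 11 cell type marker lists (log axis, linear intensity; genes measured in brackets) on the 4 arrays, 1 point per array of pooled RNA. Adipocyte, lymphocyte and endothelial lists are highest on the PAX8PPARg placebo array, and the WT RU486 array is highest for macrophage and lowest for luminal genes.

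The rest of the receptor's pathway was read from lists of chaperones, coregulators, steroid enzymes and other responsive genes. Receptor chaperones had a median RU486 difference of 0.55 log2 over 8 genes in PAX8PPARg, against 0.05 for all genes. Of the 8, 1 was 2-fold higher, against 5.05% of all genes. This was Hspa8, the constitutive HSP70 (1.31 in PAX8PPARg and 0.40 in WT). Hsp90aa1, the chaperone that holds the receptor ready for hormone, was at 0.78 and -0.07, the HSP40 gene Dnaja1 at 0.79 and -0.14, and Fkbp4, which favours receptor transport to the nucleus, at 0.59 and -0.79. The 8 coregulators above the level filter were level (median -0.04 in PAX8PPARg and 0.04 in WT). Of these, 0 differed 2-fold in either genotype, against 10.2% of all genes in PAX8PPARg and 13.7% in WT. Those with the largest differences were the coactivator genes Ncoa1 (0.06 in PAX8PPARg and -0.60 in WT), Ncoa3 (0.52 and 0.49), Ncoa4 (-0.60 and 0.18) and Crebbp (-0.04 and 0.38). Below the level filter, Ppargc1a was not level, at 503 and 158 in PAX8PPARg, against 27.7 and 76.7 in WT (1.71 and -1.08).

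Hsd11b1, the enzyme that regenerates active glucocorticoid inside cells and is abundant in fat, had the larger difference of the 2 genes of its list above the level filter. It read 261 with RU486 and 1399 with placebo in PAX8PPARg, against 314 and 652 in WT, so both RU486 arrays were low (-2.22 and -1.02 log2). H6pd, which supplies its cofactor, read 293 and 613 in PAX8PPARg, against 389 and 322.5 in WT (-0.89 and 0.26). Hsd11b2, which inactivates glucocorticoid, was below the level filter at 102 and 81.4 in PAX8PPARg, against 35.5 and 26.0 in WT. Pgr, the other main receptor blocked by RU486, was also below it, at 78.0 and 235.8 in PAX8PPARg, against 37.9 and 37.3 in WT. Nr3c2, the mineralocorticoid receptor gene, was not analysed here.

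Other genes known to respond to glucocorticoids did not share 1 direction. Of 29 above the level filter, 5 were 2-fold higher and 3 lower with RU486 in PAX8PPARg (median -0.15), against 5.05% and 5.1% of all genes. In WT 3 were higher and 7 lower (median -0.06), against 5.5% and 8.25%. Rgs2, which damps G protein signals, read 700.5 with RU486 and 3947 with placebo in PAX8PPARg, against 1556 and 1565 in WT (-2.33 and -0.01). Its WT pair was level and lay between the PAX8PPARg pair, as for Fkbp5 and Sgk1. Cdo1, a cysteine dioxygenase, was lower in both genotypes (-3.06 and -2.51), the ubiquitin ligase gene Fbxo32 mainly in WT (-0.83 and -2.27), and Sult1a1, a sulfotransferase, went opposite ways (-2.58 and 1.09).

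The lists around single targets were mixed as well. Of 12 clock genes, 1 was 2-fold higher with RU486 in PAX8PPARg (Nfil3, 1.22), against 5.05% of all genes. Another 2 were 2-fold lower (Dbp, -1.18, and Cry2, -1.01), against 5.1%. In WT 1 was 2-fold higher (Tef, 1.23), against 5.5%. Dbp and Cry2, which like Per1 are driven by the clock, read 0.56 and 0.51 in WT. Of 14 genes of metal handling and oxidative stress, 2 were 2-fold higher and 3 lower in PAX8PPARg, against 5.05% and 5.1% of all genes. In WT 2 were lower, against 8.25%. The ferritin gene Fth1 was at 1.31 in PAX8PPARg and 0.48 in WT, and the quinone reductase gene Nqo1 at 1.89 and -0.13. The metal transporter gene Slc39a8 was at -1.53 and -1.24, and Selenbp1, a selenium-binding protein gene, at -1.28 and -0.47.

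**Figure D5:**
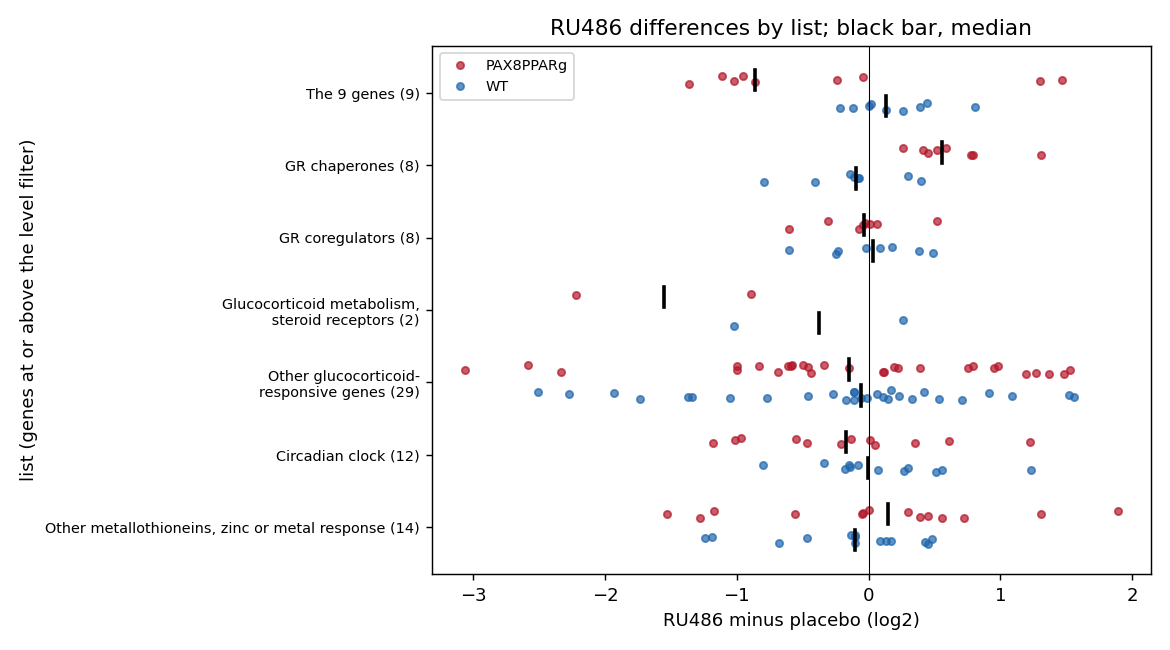
RU486 minus placebo (log2, x axis) for each gene above the level filter in 7 lists, PAX8PPARg in red above WT in blue, with the list median as a black bar. The 9 genes have a median of -0.86 in PAX8PPARg and 0.13 in WT, the chaperones 0.55 and -0.09, and the 29 other responsive genes spread on both sides of 0.

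Over all 4 arrays, an additive limma fit with genotype and treatment was the model tested, and it left 1 residual degree of freedom. It called 0 of the 9 genes and 0 of all 6197 for RU486 after Benjamini-Hochberg adjustment, and 0 of the 9 had an unadjusted p under 0.05 (278 of all genes did). For genotype it also called 0 of 9 and 0 of 6197, with 0 and 273 under an unadjusted 0.05. The estimate for RU486 over both genotypes was -0.68 log2 for Tsc22d3 (95% interval -1.92 to 0.55, adjusted p = 0.97 in limma), -0.46 for Fkbp5 (-1.50 to 0.57) and 0.93 for Mt2 (-0.16 to 2.02). A difference of the RU486 effect between genotypes enters the residual of this fit.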

How the data were processed

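The deposited values were probe set signals (linear intensity) of 4 Affymetrix arrays. No source used here names the signal algorithm. Across the arrays the authors' deposited signals shared a 2% trimmed mean of 500.15 to 500.20, as a common scaling gives. RNA was pooled from 5 mice a group, per the labels' protocols.

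Of 22690 probe sets, 64 were controls. Gene names came from the platform annotation. From log2(signal + 16) the median of each array was subtracted (170.3, 188.4, 163.0 and 163.1 as signals for PAX8PPARg RU486, PAX8PPARg placebo, WT RU486 and WT placebo). The probe set with the highest mean stood for a gene, and genes at or above the median level (6197 of 12393) entered counts at 2-fold and the limma fit, with Benjamini-Hochberg adjustment at 0.05. The number of arrays limits the precision. The genes, lists and tests were chosen with earlier results of these data known. From each list the text names up to 4 genes with the largest RU486 difference, and the receptors and enzymes Pgr, Hsd11b1 and Hsd11b2. The coregulator gene Ppargc1a, below the level filter, was named in addition because of its difference. The steps were tested on simulated data. Alternatives were other pseudocounts, no centring, quantile normalization, averaged probe sets and no level filter. limma was version 3.58.1 under R 4.3.3, and numpy 2.4.6 ran under Python 3.11.15.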

Additional observations from a re-analysis of the deposited data

Results flagged for a closer look

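For 5 of the 10 genes the RU486 difference had opposite signs in the genotypes, each resting on 1 array a group. Of all genes, 45.8% were below 0 in PAX8PPARg and 54.8% in WT. The share of all genes with opposite signs was not counted, so the count of 5 is not read as particular to these genes. The difference between genotypes was not tested. The RU486 effect in PAX8PPARg minus that in WT was -0.50 log2 for Nr3c1, -0.97 for Fkbp5, -2.39 for Zbtb16, -1.30 for Per1 and -0.85 for Dusp1. For Fkbp5 the WT difference (0.02) and for Dusp1 the PAX8PPARg difference (-0.04) were close to 0, and for Dusp1 it was 0.01 under quantile normalization. Zbtb16 lay below the level filter, and its value was -3.32 with a pseudocount of 1 and -1.34 with a pseudocount of 64.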

How the results depend on the processing

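With 1 array a group no array could be left out. No paired analysis was possible because the labels give no replicate numbers and each group had 1 array. The count of the genes at least 2-fold different between RU486 and placebo in PAX8PPARg was 5, and 5 to 6 under every alternative except the mean of all probe sets, which gave 2. In WT the count was 0, and 1 without the level filter, which added Zbtb16. For PAX8PPARg against WT under RU486 it was 3, and 1 with a pseudocount of 64, where Per1 and Dusp1 both read -0.96. It was 2 without centring and with quantile normalization, which lost Dusp1, and 2 with the mean of all probe sets, which lost Tsc22d3 (-0.92). Under placebo it was 2, and 1 with a pseudocount of 64, without centring and with quantile normalization, which left Mt1. Without the level filter it was 3, which added Zbtb16 (2.08). The limma counts were 0 under all alternatives run. For single-gene values the scale was the standard deviation of the disagreement between the 2 brightest probe sets of a gene. It was 0.429 log2 for RU486 in PAX8PPARg and 0.37 in WT, and 0.318 to 0.511 over all comparisons, wider than the median disagreement given above. Of 250 single-gene values under alternatives, 229 moved by no more than this, 21 moved by more, and no called value changed sign. Of the 21, 14 came from averaging all probe sets. The mean over probe sets at or above the level filter was chosen after seeing the data. Zbtb16 and the second probe sets of Fkbp5, Tsc22d3 and Mt1 are limited by low signal.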

Other observations

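Families around 2 of the targets did not share their values. Of 8 other dual-specificity phosphatase genes above the level filter, 0 differed 2-fold with RU486 in PAX8PPARg, against 10.2% of all genes. In WT 1 was 2-fold lower, against 8.25%. Dusp3 had the pattern closest to that described for Dusp1 among the 4 named, at -0.24 log2 in PAX8PPARg and 0.99 in WT, while Dusp7 (0.74 and -1.22) and Dusp16 (-0.18 and -0.78) were lower with RU486 in WT. Dusp11 read 1733 with RU486 and 1408 with placebo in PAX8PPARg, against 1113 and 2238 in WT. Of 5 genes of the SGK family and sodium transport, Sgk3, a close relative of Sgk1, was at -0.41 and 1.25, the sodium pump gene Atp1b1 at 0.20 and -1.43, and the scaffold genes Slc9a3r1 and Slc9a3r2 at -0.32 and -1.51 and at -2.02 and -1.64. Among 12 immediate early genes, 2 were 2-fold higher and 2 lower in PAX8PPARg, against 5.05% and 5.1% of all genes. In WT 2 were higher, against 5.5%. Fos read 332 with RU486 and 1578 with placebo in PAX8PPARg, against 1797 and 695 in WT. Egr2 (-1.28 in PAX8PPARg and -0.09 in WT), Ier3 (1.20 and -0.74) and Maff (1.30 and -0.24) were the others with the largest differences.

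The genes whose 4 values ran closest to a target's were found by the root mean square distance of centred log2 profiles over the 4 arrays. For Fkbp5 these were Eci1 (0.034), Trafd1 (0.051) and Adipor2 (0.054), with 217 genes within 0.2. For Tsc22d3 they were Pald1 (0.092), Chd7 (0.094) and Ap3m2 (0.135), with 15 within 0.2, and for Zbtb16 Tfap2b (0.147), Adgrl1 (0.261) and Pygl (0.275), with 1 within 0.2. For Nr3c1 they were Rtca (0.011), Rnf146 (0.021) and Thoc2 (0.023), and 1319 genes lay within 0.2, so the profile of its brightest probe set was a common one. The other 2 Nr3c1 probe sets, with larger RU486 differences in PAX8PPARg (-0.70 and -0.59), were not searched.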
